A study of Arabidopsis thaliana with 9 samples.

Results

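The genes described here are 103 Arabidopsis thaliana genes whose signal on ATH1 expression arrays was low in cells held in mannitol with their walls on, and higher both in wall-less cells and in untreated cells. They were chosen by their values. A probe set is the group of short probes by which the array reads a gene, and only probe sets that name a single gene were used. The gene name had to be a locus code such as AT1G10990, a systematic code that gives the chromosome and the gene's place along it, in use where a gene has no short symbol. On the scale log2(intensity + 16), averaged per group, the osmotic cells had to lie at least 0.6 below the intact cells and at least 0.6 below the protoplasts. Every osmotic array also had to lie below all 6 other arrays. Of 11933 probe sets with a locus code, 103 met the rule, each for a different gene, out of 22746 probe sets other than controls.

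All samples were T87 cells, a wild-type suspension cell line that grows undifferentiated in liquid medium under light, taken from cultures 4 days old. The 3 osmotic samples were cells with walls kept for 3 h in medium containing 0.4 M mannitol. The 3 protoplast samples were cells whose walls were digested for 1.5 h with cellulase and pectolyase in 0.35 M mannitol, washed 3 times in 0.4 M mannitol and then kept for 3 h in medium with 0.4 M mannitol. The 3 intact samples were untreated cells, and the labels describe no mock change of medium for them. Protoplasts were therefore in mannitol for longer than the osmotic cells, and the genes are described only as low in the walled mannitol cells. Wall, enzymes, washes and time in mannitol all differ between these groups, and their parts cannot be told apart.

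Mannitol draws water out of plant cells, which respond through abscisic acid dependent and independent signalling, by accumulating protective proteins and osmolytes, and by slowing growth. Enzymes that digest the wall release wall fragments and remove the layer that bears turgor, and isolated protoplasts switch on wound and defence genes while they begin to rebuild a wall. A gene low in the osmotic cells and not low in protoplasts thus separates conditions that share the osmoticum. The locus codes carry almost no names in the annotation used, so no role can be given for most of these genes.

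The treatments were visible in genes that respond to them. LTI30, a dehydrin, had intensities between 5078 and 9596 in osmotic cells, between 21437 and 27688 in protoplasts and between 254.4 and 302.7 in intact cells. STZ, a stress-induced zinc finger repressor, lay between 524.9 and 621.6 in osmotic cells, between 5782 and 7347 in protoplasts and between 121.1 and 311.1 in intact cells. COR47, another dehydrin, was highest on the arrays numbered 3 in every group. It read 7471, 5497 and 12848 in osmotic cells, 690.2, 762 and 6900 in protoplasts, and 159.7, 215.9 and 842.7 in intact cells. No marker that defines T87 cells was used. Of the markers of differentiated cells, the root hair expansins EXPA7 and EXPA18 read between 2.962 and 51.01 over all 9 arrays. The secondary wall glycosyltransferase GUT2 read between 89.55 and 114.3, near the one-gene medians of the arrays (86.34 to 122.8). Array medians were 144.6 to 162.4 in osmotic cells, 115.4 to 130.5 in protoplasts and 151.9 to 156 in intact cells.

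The 103 genes took up a small corner of the array's values. Among the locus codes, 1205 probe sets lay at least 0.6 below intact cells in the osmotic cells, and 168 of these were also at least 0.6 below protoplasts. The arrays overlapped in 65 of the 168, which left the 103. Another 172 probe sets had osmotic arrays below all others without reaching 0.6 in both differences. With the signs turned, 189 locus-code probe sets (1.584%) lay highest in the osmotic cells, against 103 (0.863%) lowest. The median log2 difference of the members was -0.89 for osmotic minus intact (-2.01 to -0.61) and -1.22 for osmotic minus protoplast (-4.39 to -0.61). These numbers describe the choice and were not tested.

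**Figure D1:**
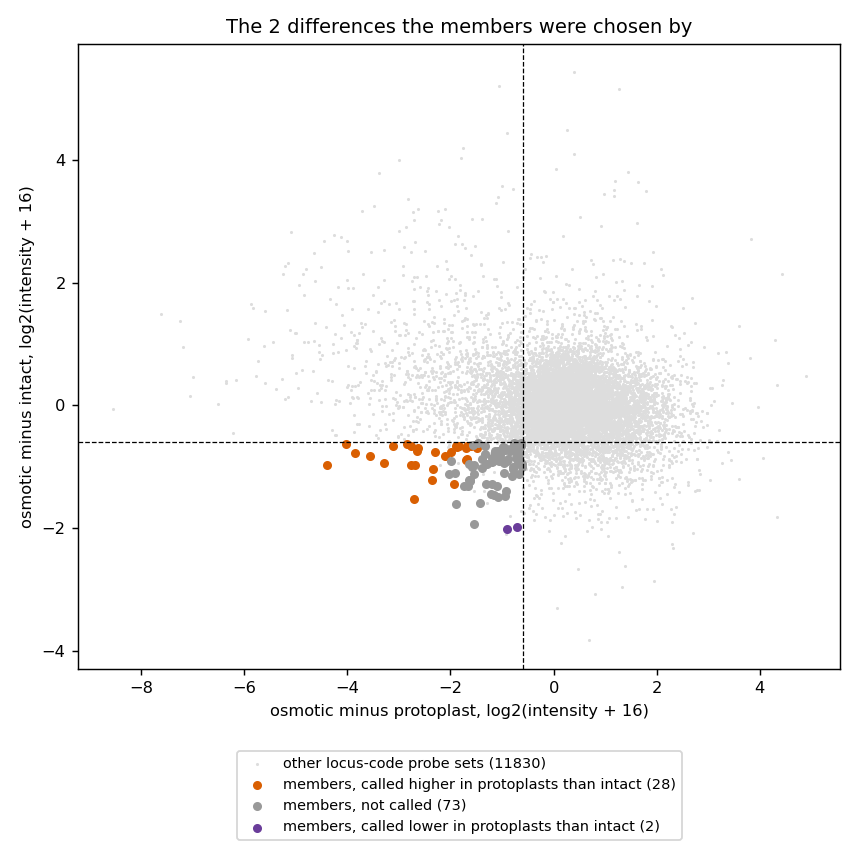
Osmotic minus intact (vertical) against osmotic minus protoplast (horizontal) for 11933 locus-code probe sets, both as differences of group means on log2(intensity + 16). Dashed lines mark -0.6, and the 103 members lie below and left of both, coloured by the separate test of protoplasts against intact cells: 28 higher, 73 not called, 2 lower.

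In 23 of the genes the osmotic signal was at least 2-fold lower against both other groups on this scale. A total of 33 reached that size against intact cells and 70 against protoplasts, of which 18 were at least 4-fold lower. The limma adjusted p over all 13513 one-gene probe sets was under 0.05 for 37 of the 103 against intact cells, where 3.68% of all probe sets were called lower. It was under 0.05 for 94 of the 103 against protoplasts, where 13.2% of all were called lower. Both contrasts chose the genes, so nothing is read from these counts. The members closest to the threshold inside it were AT4G30150, at -0.61 against protoplasts, and AT5G57250 and AT1G31840, at -0.61 and -0.62 against intact cells. Just outside lay AT5G55040, AT1G50440 and AT1G66210, at -0.5997, -0.5964 and -0.5901 against intact cells.

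Most members were neither very dim nor very bright. Their mean intensity over the 9 arrays had a median of 211 (10.7 to 6808), against 123.1 for all locus-code probe sets. A mean under 50 was found in 15 of the 103, and in 38.6% of all locus codes. At a mean of 1000 and over there were 10. In 30 members every osmotic array read under 50, where the added 16 shrinks a fold change. The size of the dip in those genes thus depends on the number added, and their true change is uncertain. The spread within groups was 0.343 (median SD on the log2 scale) for the members and 0.318 for all locus-code probe sets.

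The deepest dip, taken as the smaller of the differences, on this scale belonged to AT1G10990. Its intensities were 831.9, 799 and 384.5 in osmotic cells, 2941, 2994 and 1590 in protoplasts, and 2216, 2046 and 1711 in intact cells. The third osmotic array was the lowest of all 9, and protoplasts and intact cells overlapped. The mean was 672 ± 249 in osmotic cells, 2508 ± 796 in protoplasts and 1991 ± 257 in intact cells (SD, n = 3 each), and the log2 difference was -1.61 for osmotic minus intact and -1.90 for osmotic minus protoplast.

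AT4G17260 was the brightest member. It read 2841, 2961 and 4387 in osmotic cells, 8091, 5475 and 13042 in protoplasts, and 8490, 7998 and 7983 in intact cells. The intact arrays were close together, and the protoplast arrays spread to either side of them. AT5G61240 was tight within every group, with 406, 362.2 and 393.6 in osmotic cells, 1586, 1753 and 1281 in protoplasts, and 939.1, 1017 and 940.8 in intact cells. Its 3 groups did not overlap, and the intact cells lay between the other groups. AT4G01920 had the same order, with 200.2, 169.9 and 160 in osmotic cells, 606.9, 597.3 and 520.4 in protoplasts, and 440, 407 and 437.8 in intact cells. None of its groups overlapped either.

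AT2G20780 read 180.1, 177.2 and 105.1 in osmotic cells, 625.8, 595.7 and 352.4 in protoplasts, and 398.5, 375.6 and 425.5 in intact cells. AT1G24530 read 243.1, 168 and 337.1 in osmotic cells, 659.4, 557.1 and 529.7 in protoplasts, and 747.1, 603.1 and 699 in intact cells. In both genes protoplasts and intact cells overlapped. AT3G26700 had 56.38, 38.78 and 87.87 in osmotic cells, 308.2, 324 and 97.8 in protoplasts, and 165.6, 165.4 and 144.1 in intact cells. On the third array protoplasts came near the highest osmotic value.

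Among the 12 deepest members 4 were dim, with a mean under 100. AT2G07738 had 32.25, 3.492 and 4.118 in osmotic cells, 55.07, 83.41 and 49.12 in protoplasts, and 123.9, 84.56 and 60.44 in intact cells. AT4G19570 had 22.5, 6.647 and 2.25 in osmotic cells, 45.5, 57.71 and 52.77 in protoplasts, and 84.35, 47.23 and 54 in intact cells. AT5G44230 had 10.51, 39.67 and 4.493 in osmotic cells, 98.97, 74.49 and 68.61 in protoplasts, and 52.9, 57.46 and 60.73 in intact cells. In each of these genes one osmotic array read well above the others, and in AT2G07738 and AT4G19570 protoplasts and intact cells overlapped. The fourth, AT1G61390, is given with its neighbours. Of the 12, 11 met the rule under every scaling and pseudocount tried and with each array left out, and AT5G44230 did not. Of all 103, 33 did. The 12 were chosen as lying furthest past the same thresholds, so their higher share follows in part from the choice.

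**Figure D2:**
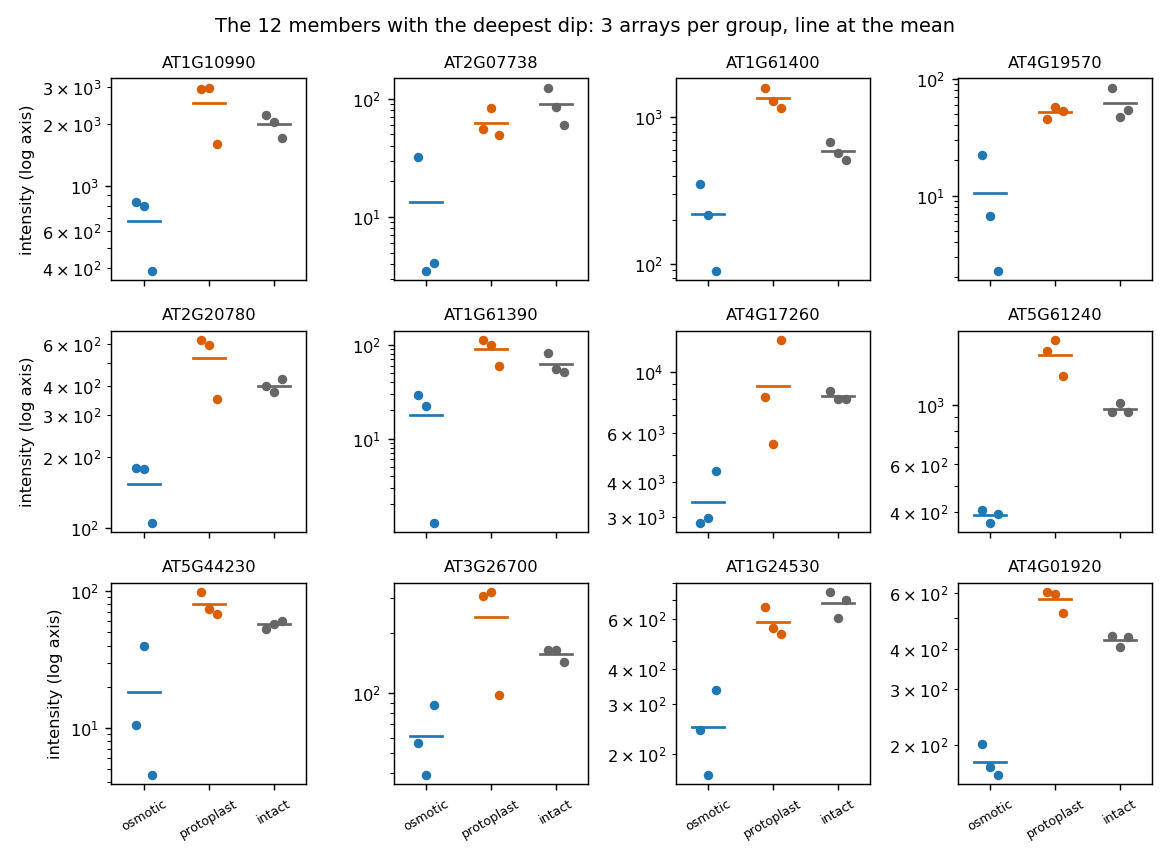
Intensities of the 12 deepest members on each array (points, log axis that differs between panels) in osmotic cells, protoplasts and intact cells, with a line at each group's mean of 3. Every osmotic point lies below every other point because the rule required it, and protoplasts and intact cells overlap in 8 of the 12.

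The comparison the rule did not cut directly was protoplasts against intact cells, which sets wall digestion with its mannitol incubation against the untreated state. It was tested with limma over all 13513 one-gene probe sets. The rule sets no threshold on this difference. It is, however, the osmotic minus intact difference less the osmotic minus protoplast one, and the rule cut both on the same arrays. A member lower in protoplasts must lie further below intact cells than the rule asks. The choice therefore shapes the counts, shares and medians given below. Protoplasts were higher in 28 of the 103, against 15.8% of all probe sets called higher. They were lower in 2, against 29.1% of all called lower. The other 73 were not called, 49 with a value above 0 and 24 below. The shares of members were 27.2% and 1.94%, and they were not tested against the shares of all probe sets. Nothing is read from the gap between them.

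The median member was 0.33 higher in protoplasts on the log2 scale (-1.28 to 3.42), where the median locus-code probe set was at -0.10. Under the 3 other scalings the members' median ran from 0.10 to 0.62. In 39 members the difference was under 0.3 in size. The uncalled members had a median standard error of 0.264 and reached 1.07, so a missed call does not show an equal level. In bulk RNA such as this, fewer cells using a gene and less RNA per cell cannot be told apart. The ratio of the ubiquitin control's 3′ to 5′ probe sets, a measure of RNA integrity and labelling, was 0.975 to 1.11 in protoplasts and 1.27 to 1.44 in intact cells. The actin ratio went the other way, with 2.12 to 2.46 in protoplasts and 1.67 to 2.11 in intact cells, and the GAPDH ratios overlapped, at 1.01 to 1.07 in protoplasts and 0.961 to 1.2 in intact cells. Their part in the differences was not tested. Centring the arrays on the hybridisation controls gave 19 higher and 4 lower, and leaving out the third protoplast array gave 37 higher and 4 lower. For these settings no share of all probe sets is given.

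AT5G44380 and AT1G61740 had the highest differences, and their order, and that of AT2G15760, changed with the setting. AT5G44380 read 507.9, 625.8 and 344 in protoplasts and 37.02, 25.84 and 28.84 in intact cells, after 13.99, 2.68 and 7.309 in osmotic cells. All protoplast arrays were far above the highest intact one, and the log2 difference was 3.42 ± 0.26 (SE, limma adjusted p = 8.64e-06). AT1G61740 read 2403, 2498 and 897.3 in protoplasts and 172, 158 and 130.3 in intact cells. Its osmotic arrays, at 104, 100.5 and 76.02, were only a little below the intact ones, and protoplasts were higher by 3.39 ± 0.36 (SE, limma adjusted p = 5.63e-05). In AT2G15760 the protoplast arrays disagreed, at 3558, 3308 and 694.1, against 201, 169 and 330.1 in intact cells. They still stood above all intact arrays, and the difference was 3.08 ± 0.55 (SE, limma adjusted p = 0.00127).

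AT1G78410 read 231.6, 197.5 and 184.6 in protoplasts, against 29.53, 22.35 and 4.727 in intact cells and 3.514, 2.042 and 2.212 in osmotic cells. Osmotic and intact cells were both dim, and protoplasts were 2.73 ± 0.27 above intact cells (SE, limma adjusted p = 4.07e-05). With 64 added in place of 16 the difference was 1.70. AT5G49760 read 2021, 1648 and 785.6 in protoplasts and 260.2, 253.7 and 206 in intact cells. The groups did not overlap, with a difference of 2.45 ± 0.32 (SE, limma adjusted p = 0.00021). In these 5 genes osmotic minus intact ran from -0.98 to -0.63, which is smaller in size than each gene's rise in protoplasts over intact cells. They were picked for the size of that rise, so the order follows in part from the choice. Against intact cells none was called lower in osmotic cells (limma adjusted p from 0.052 to 0.466). None met the rule both under every scaling and pseudocount tried and with each array left out.

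Among the 28 higher members the difference was at least 2-fold in 23, at least 4-fold in 8 and at least 8-fold in 3. Over all probe sets 11.7% were called higher and at least 2-fold, and 20.6% lower and at least 2-fold, as were both lower members. In 26 of the 28 every protoplast array lay above every intact array. Over all members that held for 34, against 19.6% of all probe sets, and the opposite order held for 4, against 32.9%. The call held for 20 of the 28 with each array left out in turn and for 19 under each of the 3 other scalings. For the 4-fold, 8-fold and held counts no share of all probe sets is given, so nothing is read from them. Among the deepest members AT5G61240 was higher in protoplasts by 0.65 ± 0.17 (SE, limma adjusted p = 0.0101). The difference was 0.98 with median centring and 0.41 with hybridisation control centring, where the limma adjusted p was 0.131. The bright member AT1G68410, at 5897, 7391 and 4610 in protoplasts and 3790, 3540 and 2756 in intact cells, was higher by 0.81 ± 0.22 (SE, limma adjusted p = 0.0134). That call was lost without the second protoplast array or the third intact array, with a limma adjusted p of up to 0.0531, and at 0.0838 with hybridisation control centring.

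Both members called lower in protoplasts had the largest osmotic dips against intact cells on this scale. A large dip there follows from the rule, since osmotic cells also had to lie at least 0.6 below the protoplasts. AT5G45220 read 221.3, 198.9 and 302 in protoplasts and 662.5, 712.8 and 450.8 in intact cells, with 145.3, 148.7 and 122.7 in osmotic cells. AT5G45510 read 883.7, 844 and 550.3 in protoplasts and 1420, 1556 and 1934 in intact cells, with 430.5, 391.5 and 353.1 in osmotic cells. No groups overlapped in either gene, and protoplasts took the middle place. Protoplast minus intact was -1.28 ± 0.23 in AT5G45220 (SE, limma adjusted p = 0.00124) and -1.11 ± 0.22 in AT5G45510 (SE, limma adjusted p = 0.00245). Both calls held with each array left out and under the 3 other scalings. Membership held less well. AT5G45220 did not meet the rule under every scaling and pseudocount tried, nor with each array left out. AT5G45510 met it with each array left out but not under every scaling and pseudocount.

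The next lowest differences were not called. AT2G43140 had 65.85, 51.4 and 88.76 in protoplasts and 96.02, 98.97 and 119.2 in intact cells, a difference of -0.53 ± 0.20 (SE, limma adjusted p = 0.0595). AT3G48810 averaged 54.5 ± 5.07 in protoplasts and 82.2 ± 20.5 in intact cells (SD, n = 3 each), with a limma adjusted p of 0.194. The third bright member, AT3G09570, averaged 1425 ± 91.8 in osmotic cells, 2826 ± 415 in protoplasts and 2305 ± 203 in intact cells (SD, n = 3 each), and the protoplast to intact difference of 0.28 ± 0.17 was not called (limma adjusted p = 0.225).

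**Figure D3:**
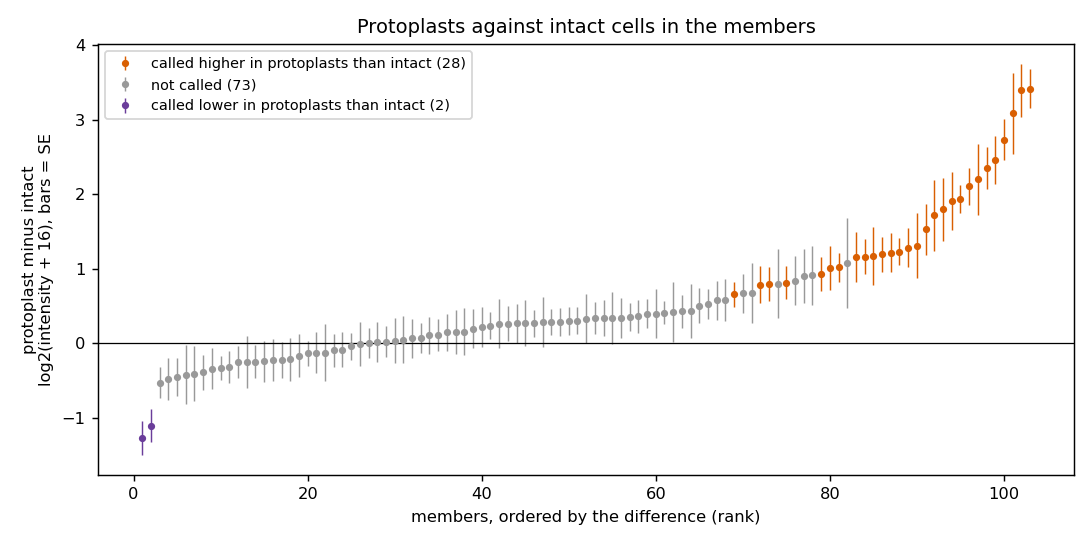
Protoplast minus intact on log2(intensity + 16) for the 103 members in rank order, with the limma standard error as bars. The 28 called higher fill the right end up to 3.42, the 2 called lower stand alone at -1.28 and -1.11, and the 73 not called run from -0.53 to 1.07.

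Only 2 members carry a gene name among the synonyms of the gene table. AT5G39990 is GlcAT14A, a beta-glucuronosyltransferase of the Golgi that adds glucuronic acid to arabinogalactan proteins of the cell wall and surface. It read 320.8, 291.5 and 255.7 in osmotic cells, 761, 638.3 and 353.6 in protoplasts, and 635.1, 818 and 933.9 in intact cells. Protoplasts and intact cells overlapped, and their difference of -0.49 ± 0.28 was not called (SE, limma adjusted p = 0.203). AT1G55290 is F6'H2, a feruloyl-CoA hydroxylase on the route to scopoletin, a coumarin. It was dim, at 7.931, 11.92 and 8.13 in osmotic cells, 65.07, 55.22 and 54.12 in protoplasts, and 49.8, 42.19 and 16.06 in intact cells. All protoplast arrays were above all intact ones, but the difference of 0.57 ± 0.26 was not called (SE, limma adjusted p = 0.105). AT1G55290 was singled out for its name, after its values were seen.

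The gene table classes 99 of the 103 as protein coding and 4 as pseudogenes, 3.88% against 8.32% among all locus codes. The 4 were AT5G26350, AT1G37110, AT2G14650 and AT2G12720, named here for their class. AT5G26350 read 30.63, 26.04 and 33.05 in osmotic cells, 389.3, 288.1 and 86.66 in protoplasts, and 88.15, 57.32 and 93.39 in intact cells. The third protoplast array fell among the intact ones, and the rise of 1.31 ± 0.44 (SE, limma adjusted p = 0.0341) was lost on leaving out the first or second protoplast array or any single intact array, with an adjusted p of up to 0.122. Over replicates 1 and 2 alone the rise was 2.01. AT1G37110 averaged 214 ± 64.5 in osmotic cells, 481 ± 159 in protoplasts and 542 ± 54.9 in intact cells (SD, n = 3 each). AT2G12720 reached 24.58 at most on any array. AT2G14650 is read by a probe set that the array's maker marks as able to match other sequences. Marks of that kind or of sharing between transcripts were on 3.88% of the members' probe sets and 2.29% of all locus codes.

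Members lay on all 5 chromosomes, from 0.741% of the locus-code probe sets on chromosome 1 to 1.02% on chromosome 2. Within 10 genes of each other there were 5 pairs, of which 3 join 4 members on chromosome 1. These are AT1G61390 and AT1G61400, next to each other, then AT1G61430 and AT1G61490. The gene just before AT1G61390 in the table's order is SD1-29, whose name marks an S-domain receptor kinase. Near-identical neighbours can share hybridisation signal, and no sequence was compared here, so the levels of these genes are uncertain.

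AT1G61400 read 349.5, 216 and 88.86 in osmotic cells, 1599, 1292 and 1155 in protoplasts, and 673.7, 573.1 and 513.8 in intact cells. No groups overlapped, and its rise of 1.17 ± 0.39 in protoplasts over intact cells (SE, limma adjusted p = 0.0327) was lost on leaving out the first or second protoplast array or any single intact array, with an adjusted p of up to 0.102. AT1G61390 was dimmer, with 29.26, 22.56 and 1.254 in osmotic cells, 113.7, 99.16 and 59.35 in protoplasts, and 81.3, 54.99 and 50.81 in intact cells. Its protoplast and intact arrays overlapped. AT1G61430 read 25.38, 21.9 and 18.72 in osmotic cells, 113.8, 180 and 91.78 in protoplasts, and 65.47, 34.24 and 37.51 in intact cells, and rose by 1.22 ± 0.26 in protoplasts (SE, limma adjusted p = 0.00407), or by 0.80 with 64 added. AT1G61490 averaged 92.8 ± 24.9 in osmotic cells, 223 ± 87.5 in protoplasts and 167 ± 43.3 in intact cells (SD, n = 3 each), with no call between protoplasts and intact cells.

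The stretch from AT1G61360 to AT1G61500 holds 13 genes with a probe set named by a locus code, 4 members and 9 others. Genes named by a symbol, such as SD1-29, were not counted. Protoplasts were called higher than intact cells in 7 of them, 2 members and 5 others, and lower in AT1G61450, where 15.8% of all probe sets were called higher and 29.1% lower. None of the 9 others met the rule. AT1G61360, at 10046, 11096 and 8769 in protoplasts and 310.8, 209.9 and 329 in intact cells, had 1164, 1078 and 309.2 in osmotic cells, on average 1.35 above intact cells on the log2 scale. AT1G61500 dipped to 245.9, 156.6 and 49.88 in osmotic cells, against 536.3, 452.3 and 470 in intact cells. Its protoplast arrays, at 337.4, 277.5 and 150.4, overlapped the osmotic ones, which kept it out.

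**Figure D4:**
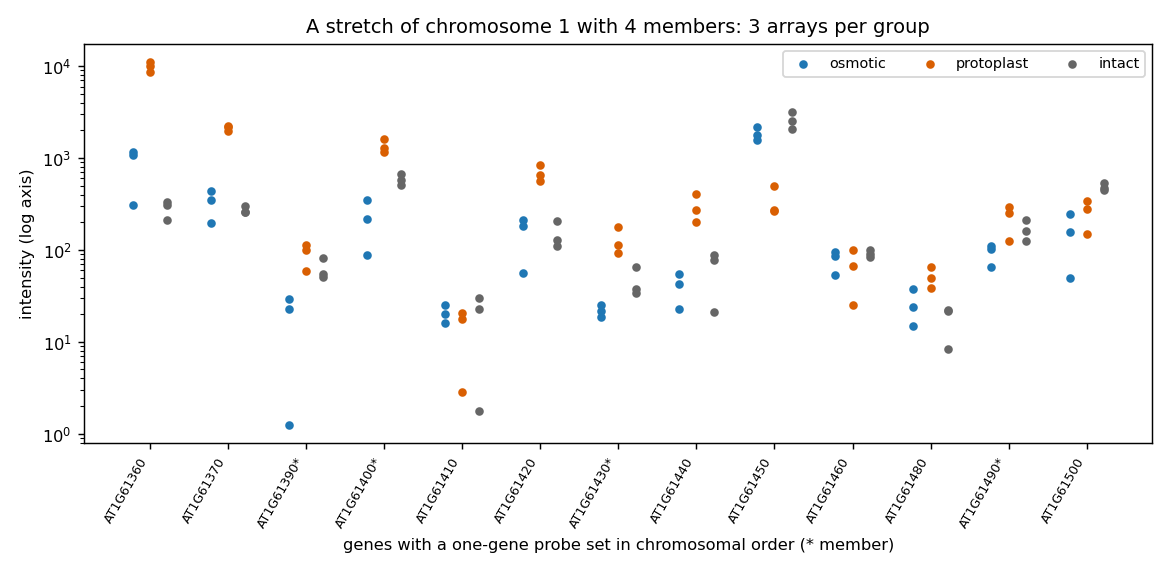
Intensities (log axis) of 13 genes of a chromosome 1 stretch in their order, 3 arrays each in osmotic cells, protoplasts and intact cells, with the 4 members starred. Only genes with a probe set named by a locus code are drawn. Osmotic points are lowest in the starred genes, protoplasts exceed intact cells most in AT1G61360, and AT1G61450 runs the other way.

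On chromosome 5, AT5G44380 and AT5G44400 stand 2 genes apart. AT5G44400 read 98.4, 78.26 and 151.2 in osmotic cells, 299.2, 437.5 and 832.5 in protoplasts, and 208.8, 236.7 and 310.6 in intact cells. Its difference of 0.90 ± 0.36 between protoplasts and intact cells missed the threshold (SE, limma adjusted p = 0.069), while AT5G44380 was called higher. AT1G10990 and AT1G10900 stand 9 genes apart, and AT1G10900 averaged 142 ± 42.3 in osmotic cells, 438 ± 181 in protoplasts and 222 ± 11.3 in intact cells (SD, n = 3 each). Pairs were picked for their places, and whether neighbours meet the rule together more often than other genes was not tested.

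Apart from these pairs, 3 members, AT2G07773, AT2G07673 and AT2G07738, have codes that begin with AT2G07. They stand at places 5, 23 and 167 in the gene order of their stretch, so none lies within 10 genes of another. Probe sets named by a locus code read 34 genes of that stretch, 19 of them through probe sets that the maker marks as shared between similar transcripts. The members are 3 of these 34, against 0.863% of all locus codes, and this was not tested. AT2G07673 had 23.48, 2.494 and 29.87 in osmotic cells, 59.98, 48.1 and 48.85 in protoplasts, and 133.2, 42.85 and 70.95 in intact cells. AT2G07773 had 158.2, 103.6 and 143.2 in osmotic cells, 222.4, 255.9 and 196.3 in protoplasts, and 341.1, 238.7 and 240.7 in intact cells. In both, protoplasts overlapped intact cells. The 34 genes had a median osmotic minus intact difference of -0.25, against 0.006 for all locus-code probe sets. For the 34 it was -0.46, -0.31 and 0.10 between arrays numbered 1, 2 and 3, so the third arrays went against the first and second.

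A second reading existed for 2 members, since other probe sets name the same gene. AT4G01290 averaged 610 ± 101 in osmotic cells, 1172 ± 102 in protoplasts and 992 ± 56.3 in intact cells (SD, n = 3 each) on the chosen probe set. Its other probe set gave -0.51 for osmotic minus intact and -0.69 for osmotic minus protoplast, short of the rule in the first. Neither difference was called (limma adjusted p = 0.459 and 0.161). The arrays of that probe set also overlapped. Its first osmotic array, at 220.7, lay above every intact array (192.8, 204.8 and 216.9) and above the third protoplast array (136.1). AT2G48060 averaged 55.9 ± 20.5 in osmotic cells, 97.9 ± 27.5 in protoplasts and 118 ± 27.2 in intact cells (SD, n = 3 each) and had 2 more probe sets, at -0.30 and 0.11 for osmotic minus intact and at -0.32 and 0.65 for osmotic minus protoplast. Neither gene met the rule on any of its other probe sets.

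The third arrays weighed on the members. The third osmotic array was the lowest of its group in 64 of the 103 (62.1%), against 45.8% of all locus-code probe sets. The third protoplast array was the lowest of its group in 76 (73.8%), against 30.4% of all. The median member intensity was 109.1, 100.5 and 83.13 on the osmotic arrays, 363.1, 331.6 and 202.7 on the protoplast arrays, and 203.9, 184.4 and 182.4 on the intact arrays. The third intact array was the lowest of its group in 42 (40.8%), against 35.7% of all. By median, members thus stood lowest on the arrays numbered 3 in every group, though by little in intact cells. The median difference of protoplasts over intact cells was 0.49 and 0.48 for arrays numbered 1 and 2 and 0.09 for those numbered 3. Their part in the results was not tested beyond leaving them out.

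Without the third arrays of all groups, 179 probe sets met the rule, of which 75 were among the 103 (72.8% of the 103 and 41.9% of the 179). Over the 103, 43 were then higher and 5 lower in protoplasts, in limma at an adjusted p under 0.05. No share of all probe sets is given for that setting, so a shift of the members alone cannot be read from these counts. The median difference was 0.45. The first osmotic array limited the choice most, since 209 probe sets met the rule without it, 99 of them members. How far the members depend on scaling, pseudocount and single arrays is drawn in the plot of counts under other settings.

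**Figure D5:**
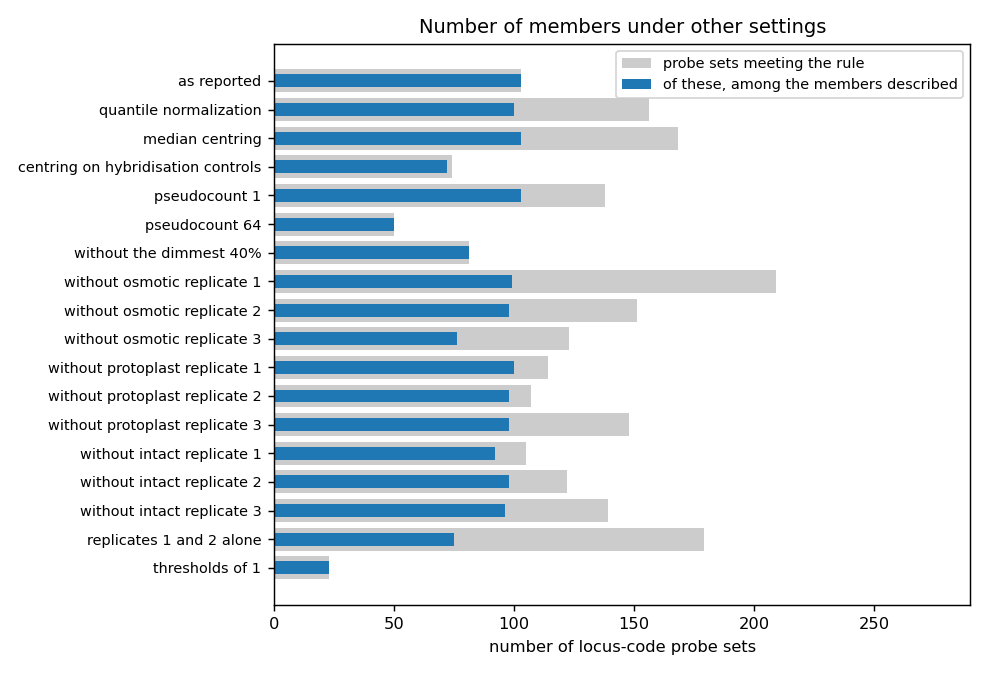
Number of locus-code probe sets that met the rule under each setting (grey bars) and how many of these are among the 103 members (blue bars), from 0 upward. The count ran from 23 with both thresholds at 1 to 209 without the first osmotic array, and 50 remained with a pseudocount of 64.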

How the data were processed

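The deposited table gives a linear intensity for each probe set on each of 9 Affymetrix ATH1 arrays, with 3 biological replicates per group per the labels; limma's p-values measure the spread between them. Per the labels' protocols, 750 ng of total RNA was labelled with biotin. How probes were combined into probe sets is not stated in the labels or the table. Each array's mean intensity without its highest and lowest 2% was 500, so arrays had been scaled to a common level, and the number of arrays limits the precision. Platform annotation gave 11933 probe sets a locus code, 1580 another symbol, 503 several genes and 8730 none here, beside 64 controls. All 11933 codes matched the RefSeq TAIR10.1 gene table, used for names, classes and order only.

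Values were taken as log2(intensity + 16). Linear models with moderated statistics (limma 3.58.1, R 4.3.3) were fitted over all 13513 one-gene probe sets and the 3 groups, without a replicate term, with Benjamini-Hochberg adjustment and a threshold of 0.05. Tables were made with Python 3.11.15 and pandas 2.3.3. The fit and the rule were run on simulated data. The rule's simulated arrays had far less spread than the real ones, so that run checks the calculation and not the choice of members. The members, lists and tests were chosen with earlier results of these data known. Genes named were the 12 with the deepest dip, the 5 highest and 5 lowest in protoplasts over intact cells, the 3 brightest, members with another probe set and those nearest the threshold. Neighbours, pseudogenes and named synonyms were added after values were seen. A planned sorting of the members by functional class is void, because 0.427% of the locus codes have a descriptive name. Planned searches for promoter motifs were not run. No sequence was used here. Alternatives were other scalings (quantile, median, hybridisation controls), pseudocounts of 1 and 64, leaving out the dimmest 40%, array weights, a replicate block, other sets of probe sets and each array left out.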

Additional observations from a re-analysis of the deposited data

How the results depend on the processing

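The count of 103 members became 23 with thresholds of 1 and 50 when 64 was added in place of 16. It became 156 after quantile normalization and 168 after median centring. With hybridisation control centring it fell to 74, of which 72 were among the 103. It was 179 over replicates 1 and 2 alone (an alternative chosen after seeing the data) and 105 to 209 with 1 array left out. The 28 higher in protoplasts became 46 with median centring, 43 over replicates 1 and 2 alone and 20 to 37 with 1 array left out. The 2 lower became 4 with array weights, with 64 added and with hybridisation control centring, 5 over replicates 1 and 2 alone and 2 to 4 with 1 array left out (4 without the third protoplast array). The 37 called against intact cells became 79 with array weights, 8 at an adjusted p of 0.01, 19 with hybridisation control centring, 15 with a pseudocount of 1 and 12 to 59 with 1 array left out. The 94 called against protoplasts and the median difference of 0.33 ran from 68 to 100 and from 0.10 to 0.62. The median of all one-gene probe sets for protoplasts minus intact cells was -0.10 as deposited, -0.09, 0.07 and -0.24 under the quantile, median and hybridisation control scalings. With a replicate block 30 were higher, 3 lower, 45 called against intact cells and 92 against protoplasts. Shares of all probe sets called are given for the main fit only, so none stands beside these counts. The labels do not say whether arrays of the same number were paired. Of 9 same-number pairs, 7 deviated together with a correlation over 0.1 (0.023 to 0.321 over the 9, the highest between arrays numbered 3). Not every array correlated best with its own number. Between groups, arrays numbered 1 correlated with those numbered 2 at 0.043 to 0.152. Arrays numbered 3 correlated negatively with those of other numbers, from -0.245 to -0.051. Whether arrays of the same number shared a run was not tested, and the main fit has no replicate term. Among the named members signs turned in uncalled genes only, all for protoplasts minus intact cells. With median centring AT4G19570 went to 0.089, AT1G24530 to 0.099, AT2G48060 to 0.045, AT2G07773 to 0.059 and AT1G37110 to 0.106. With hybridisation control centring AT4G17260 went to -0.211, AT4G01290 to -0.004, AT5G57250 to -0.041, AT1G31840 to -0.198, AT2G14650 to -0.168 and AT2G12720 to -0.071. With quantile normalization AT4G17260 went to -0.101, AT2G07773 to 0.018 and AT2G12720 to -0.076, and with array weights AT4G17260 to -0.234 and AT2G12720 to -0.205. Over replicates 1 and 2 alone AT4G17260 went to -0.307, AT1G31840 to -0.012, AT1G37110 to 0.134 and AT2G12720 to -0.462. With 1 array left out AT4G19570 ran from -0.306 to 0.027, AT4G17260 from -0.292 to 0.333, AT1G31840 from -0.138 to 0.143, AT1G37110 from -0.428 to 0.057 and AT2G12720 from -0.251 to 0.336. The cause was not tested. Signal limits the dim genes: 30 members read under 50 on all osmotic arrays.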

Other observations

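Genes with a symbol other than a locus code met the same numeric conditions in 18 of 1580 probe sets (1.139%), against 103 of 11933 locus codes (0.863%). They were chosen by the same contrasts, so their osmotic dips are a description. The choice also shapes their counts for protoplasts against intact cells. EXO, a brassinosteroid-responsive gene that promotes growth by cell expansion, read 505.7, 647.6 and 965 in osmotic cells, 1534, 1861 and 2386 in protoplasts, and 3969, 4044 and 3957 in intact cells. No groups overlapped, and protoplast minus intact was -1.07 ± 0.25 on the log2 scale (SE, limma adjusted p = 0.0065). TIC, a regulator of the circadian clock, read 818.1, 554.7 and 497.4 in osmotic cells, 1844, 1728 and 995.5 in protoplasts, and 1267, 1414 and 1380 in intact cells, and protoplasts overlapped intact cells. CSLA03, of the cellulose synthase-like A family that makes glucomannan, read 108.3, 87.82 and 78.33 in osmotic cells, 265.8, 135.6 and 230.4 in protoplasts, and 221.4, 246 and 346.6 in intact cells. The plastid gene petN, for a small subunit of the cytochrome b6f complex, was dim, with 9.879, 9.541 and 5.359 in osmotic cells, 72.63, 66.68 and 64.11 in protoplasts, and 45.16, 56.24 and 60.12 in intact cells. The mitochondrial gene nad2, for a subunit of complex I, had 1.75, 2.318 and 5.363 in osmotic cells, 15.97, 39.07 and 28.52 in protoplasts, and 31.19, 32.8 and 13.6 in intact cells.

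Of the 18, 6 were higher in protoplasts than in intact cells, namely Prx37, BZIP53, SPI, RALFL33, NANA and PRA1.B4, and EXO alone was lower, against 15.8% of all probe sets called higher and 29.1% called lower. Prx37, a secreted class III peroxidase, read 3139, 2480 and 454.9 in protoplasts, against 52.83, 35.86 and 39.83 in intact cells, with 11.58, 4.717 and 30.56 in osmotic cells. The third protoplast array was far below the first and second and still above every intact one (4.73 ± 0.63, SE, limma adjusted p = 0.0002). RALFL33, a secreted signalling peptide of the RALF family, read 4601, 5501 and 3865 in protoplasts, against 2102, 1786 and 1235 in intact cells (1.46 ± 0.23, SE, limma adjusted p = 0.0006), with 1115, 957.3 and 1028 in osmotic cells. BZIP53, a bZIP transcription factor known from seed maturation and amino acid metabolism, read 5042, 4939 and 3239 in protoplasts, against 1152, 1232 and 1446 in intact cells (1.75 ± 0.21, SE, limma adjusted p = 0.0001). RALFL33, SPI, NANA and PRA1.B4 lie outside the 10 deepest of the 18 and were picked after their values were seen.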
